A study of Mus musculus with 36 samples.

Results

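Gene expression in the hippocampus was compared with that in the prefrontal cortex of wild-type mice. The comparison takes the 3 wild-type (WT) libraries labelled HP and the 3 WT libraries labelled PFc, 6 of the 36 libraries of a study of 6 brain regions. The labels give the regions as abbreviations, and HP and PFc are read here as hippocampus and prefrontal cortex. The mice were C57, 6 to 7 weeks old, and the labels name no treatment. The study also holds mice with a knock-in (KI) at Maoa, the gene of monoamine oxidase A, and their 3 HP and 3 PFc libraries serve below as separate libraries of the same regions. The labels do not say that the 3 libraries of a group came from separate animals, so the p-values speak of library-to-library spread, which could be technical in part or in whole.

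The hippocampus is a folded sheet of older cortex made of fields: the granule cells of the dentate gyrus project through mossy fibres to CA3, CA3 projects to CA1, and CA2 lies between them. The prefrontal cortex is layered neocortex, with upper-layer neurons that project to other cortical areas and deep-layer neurons that project below the cortex. Both hold glutamatergic pyramidal cells with interneurons and glia, and both receive monoamine input from the brainstem. Whole-tissue RNA mixes all of these cells, so fewer cells of a type and less RNA per cell cannot be told apart in any value below.

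Library totals were 17700411, 17776842 and 18863503 estimated counts in the WT HP libraries, against 18564585, 17935077 and 18579461 in the WT PFc libraries. The first principal component of these 6 libraries held 64.1% of the variance and set the 3 HP libraries apart from the 3 PFc libraries. The second, with 13.8%, set HP 1 apart from HP 2 and HP 3, and PFc 2 from PFc 1. The summed level of 10 markers of cortical layer 2/3 was 296 CPM (counts scaled to a common library size) in HP 1, against 435 in HP 2 and 398 in HP 3. The 13 markers of choroid plexus, the tissue that secretes cerebrospinal fluid, summed to 406, 265 and 1165 CPM in the HP libraries, against 349, 1957 and 380 CPM in the PFc libraries, so HP 3 and PFc 2 were the highest of their regions.

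Of 14221 genes tested, 2655 (18.7%) differed between hippocampus and prefrontal cortex by the quasi-likelihood test in edgeR (Benjamini-Hochberg adjusted p under 0.05). In hippocampus 1195 genes (8.4%) were higher and 1460 (10.3%) were lower. A change of at least 2-fold was found for 368 of the higher genes (2.59%) and 433 of the lower genes (3.04%). The 3 libraries of each region did not overlap for 5260 genes (37%). The median log2 fold change over all genes tested was 0.01. DESeq2 called 2795 genes, of which 2513 were shared with edgeR. Calls made with all 6 libraries and again on leaving out each library in turn numbered 1499, of which 652 were at least 2-fold. Below, "rose" and "fell" are said of hippocampus relative to prefrontal cortex and of genes past this test, levels are CPM, and adjusted p-values come from this edgeR fit over all genes. Each count from a gene list stands beside these shares of all genes tested, 8.4% higher and 10.3% lower, and several lists lie near them.

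The genes that rose most had low levels in prefrontal cortex and included markers of dentate granule cells and CA1 pyramidal cells. The largest rises and falls were taken only from calls whose regions do not overlap, so that separation was set by the choice. Lhx9, a LIM-homeodomain transcription factor on chromosome 1 (138825186 to 138848839 in GRCm38.p6), had 27.8, 18.3 and 25.2 CPM in WT HP libraries, against 0.216, 0.0559 and 0.268 CPM in WT PFc libraries (log2 fold change 6.98, SE 0.32, edgeR adjusted p = 2.95e-06). Its lowest hippocampal library was far above its highest prefrontal library. Lhx9 is listed here as a thalamus gene, not as a gene of a hippocampal field. Of 12 tested thalamus genes 2 rose and 3 fell (median −0.17), and the part of thalamus in the Lhx9 value was not tested. Dsp, which encodes the desmosomal protein desmoplakin and marks granule cells, had 55.4, 62.0 and 63.4 CPM in WT HP libraries, against 0.216, 1.45 and 0.375 CPM in WT PFc libraries (log2 fold change 6.47, SE 0.345, edgeR adjusted p = 6.09e-06). PFc 2 was the highest of the prefrontal libraries and still lay far below every hippocampal library. C1ql2, a secreted C1q-like protein of mossy fibre synapses, had 81.3, 74.3 and 64.4 CPM in WT HP libraries, against 2.16, 1.12 and 2.09 CPM in WT PFc libraries (log2 fold change 5.35, SE 0.2, edgeR adjusted p = 1.52e-06). Fibcd1, a chitin-binding membrane protein of CA1 pyramidal cells, had 273, 210 and 265 CPM in WT HP libraries, against 6.53, 7.66 and 6.92 CPM in WT PFc libraries (log2 fold change 5.15, SE 0.143, edgeR adjusted p = 2.82e-07). Neither gene's lowest hippocampal library came near its highest prefrontal library.

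The 12 largest rises also included Lct, the gene of lactase, Pla2g2f, a secreted phospholipase A2, the sodium-proton exchanger Slc9a4, the nodal antagonist Lefty1, the keratin Krt2, the protease inhibitor Spink8 and the Popeye-domain gene Popdc3. Their log2 fold changes ran from 3.99 for Popdc3 to 5.76 for Lct, with mean levels in WT HP libraries of 3.86 CPM for Pla2g2f to 49.7 CPM for Lct. In WT PFc libraries the means were between 0.0725 CPM for Pla2g2f and 0.911 CPM for Lct. Slc9a2, at 3.95, came next below Popdc3 in the ranking. For 12 of the 12 the WT HP median was the highest of the medians of the 6 WT regions, and for 6 of the 12 the WT PFc median was the lowest. The libraries of other regions were uneven. In CPM scaled over all 36 libraries, C1ql2 had 1.79, 43.0 and 2.20 in WT libraries labelled Nac. It had 41.1, 34.3 and 2.91 in WT libraries labelled VTA. Whether those libraries hold the region on their label was not tested.

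**Figure D1:**
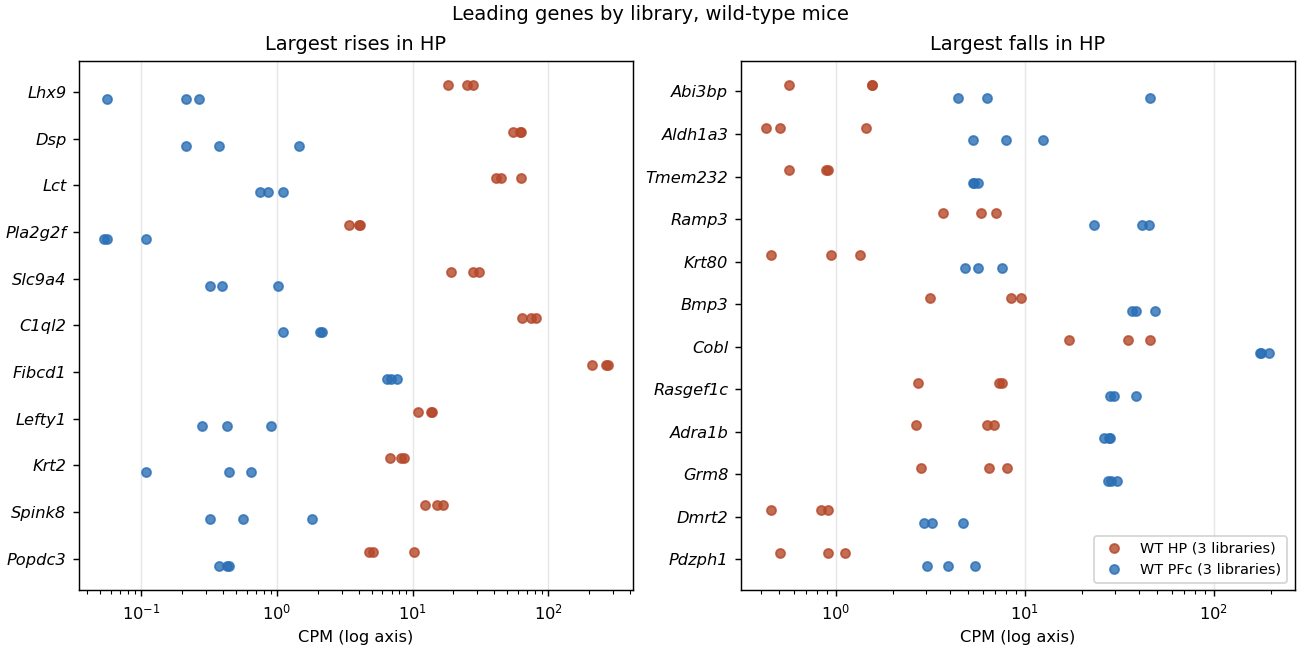
Level of genes among the 12 largest rises (left) and of the 12 largest falls (right) in each WT library, in CPM on a log axis; each point is 1 library, red for HP and blue for PFc. The 2 colours do not overlap for any gene shown because only such genes were chosen. Among the falls the lowest red point belongs to HP 1 for 11 of 12 genes, and Abi3bp has 1 PFc library at 46.1 CPM, far above the others.

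The 12 largest falls were smaller than the 12 largest rises on the log2 scale and included enzymes, receptors and growth factors. Aldh1a3, a retinaldehyde dehydrogenase that makes retinoic acid, had 0.509, 1.45 and 0.429 CPM in WT HP libraries, against 5.34, 12.4 and 7.94 CPM in WT PFc libraries (log2 fold change −3.42, SE 0.447, edgeR adjusted p = 0.000846). Cobl, an actin nucleator of neurites, had 17.2, 46.2 and 35.3 CPM in WT HP libraries, against 197, 175 and 179 CPM in WT PFc libraries (log2 fold change −2.48, SE 0.281, edgeR adjusted p = 0.000404). HP 1 lay lowest, and the prefrontal libraries were close to each other. Adra1b, the alpha-1B adrenergic receptor, had 2.66, 6.85 and 6.32 CPM in WT HP libraries, against 26.4, 28.3 and 27.8 CPM in WT PFc libraries (log2 fold change −2.38, SE 0.263, edgeR adjusted p = 0.000361). Grm8, a presynaptic metabotropic glutamate receptor, had 2.83, 6.46 and 8.04 CPM in WT HP libraries, against 27.7, 28.7 and 30.9 CPM in WT PFc libraries (log2 fold change −2.33, SE 0.278, edgeR adjusted p = 0.000538). For both receptors the groups were well separated and HP 1 was again the lowest library.

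Abi3bp ranked first among the falls at a log2 fold change of −3.94 (SE 0.925), but its level was uneven: 0.565, 1.56 and 1.55 CPM in WT HP libraries, against 46.1, 4.42 and 6.33 CPM in WT PFc libraries. Without PFc 1 the log2 fold change was −2.14, and its call was lost on leaving out an HP library, at −3.60 without HP 1 (edgeR adjusted p = 0.0501), −4.14 without HP 2 (0.0577) and −4.15 without HP 3 (0.0584). The remaining falls were Tmem232, Ramp3 (an accessory protein of the calcitonin receptor), the keratin Krt80, the growth factor Bmp3, Rasgef1c (a Ras-family exchange factor), the transcription factor Dmrt2 and Pdzph1, with log2 fold changes from −2.77 for Tmem232 to −2.28 for Pdzph1. Cckbr, at −2.26, came next after Pdzph1. The WT PFc median was the highest of the 6 WT regions for 7 of the 12 falls, and the WT HP median was the lowest for 6 of the 12. Other regions were uneven here too, as for Rasgef1c at 34.3, 6.79 and 32.4 CPM in WT libraries labelled Nac, scaled over all 36 libraries. HP 1 was the lowest hippocampal library for 11 of the 12 falls, and for 986 of all 1460 genes that fell. It was also the highest hippocampal library for 8 of the 12 largest rises, and for 638 of all 1195 genes that rose.

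Markers of the hippocampal fields included rises in each field listed, beside members that fell or did not pass the test. Of 14 dentate gyrus genes 9 rose and 1 fell (median log2 fold change 0.87). Prox1, the transcription factor that maintains granule cell identity, had 108, 110 and 102 CPM in WT HP libraries, against 21.8, 13.1 and 20.5 CPM in WT PFc libraries (log2 fold change 2.53, SE 0.169, edgeR adjusted p = 2.44e-05). Tdo2, a tryptophan dioxygenase of granule cells, had 8.03, 7.35 and 7.88 CPM in WT HP libraries, against 0.324, 0.783 and 0.751 CPM in WT PFc libraries (log2 fold change 3.63). Neither gene's regions overlapped. Sema5b, a semaphorin, fell by 0.90 on the log2 scale. Trpc6 (0.31), Npnt (0.57), Fam163b (0.07) and Pitpnm2 (−0.30) did not pass the test.

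Of 8 CA1 genes 5 rose and 1 fell (median 1.80). Wfs1, at −0.19, and Ccn3, at −0.35, did not pass the test. Gpr161, an orphan receptor of the primary cilium, had 79.9, 90.9 and 106 CPM in WT HP libraries, against 13.7, 9.84 and 11.9 CPM in WT PFc libraries (log2 fold change 2.97, SE 0.15, edgeR adjusted p = 5.07e-06). Pou3f1, a POU-domain transcription factor, rose by 1.30. Mpped1, a phosphodiesterase-like gene also strong in neocortex, fell by 0.44, with 236, 253 and 262 CPM in WT HP libraries, against 321, 354 and 343 CPM in WT PFc libraries. Of 9 CA2 genes tested 4 rose (median 0.35), and without HP 1 the number that rose was 2. Rgs14, a regulator of G-protein signalling that limits plasticity in CA2, rose by 0.95 to 98.1 ± 14.3 CPM in WT HP libraries, against 50.7 ± 3.78 CPM in WT PFc libraries (SD, n = 3 each). Ntf3, the neurotrophin-3 gene, rose by 1.38, and lost the call without HP 1, at 1.21 (edgeR adjusted p = 0.063, and 0.0207 with all 6 libraries).

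Of 12 genes of CA3 and the hilus 10 rose and 1 fell (median 0.97). Lhfpl1 had 1.98, 1.28 and 1.61 CPM in WT HP libraries and no count in the 3 WT PFc libraries, so it was at least 29.7-fold higher against a floor of 3 counts over the group. Iyd, an iodotyrosine deiodinase, had 3.67, 3.40 and 2.46 CPM in WT HP libraries, against 0, 0.503 and 0.268 CPM in WT PFc libraries (log2 fold change 3.60). Grik4, the KA1 kainate receptor subunit of mossy fibre synapses, had 84.8, 65.6 and 77.2 CPM in WT HP libraries, against 23.4, 31.9 and 33.5 CPM in WT PFc libraries (log2 fold change 1.36, SE 0.15, edgeR adjusted p = 0.000354). Coch, the gene of cochlin, fell by 1.52. Of 7 genes found across the fields 5 rose. Hpca, the gene of the calcium sensor hippocalcin, had 2209, 1694 and 1662 CPM in WT HP libraries, against 390, 518 and 429.6 CPM in WT PFc libraries (log2 fold change 2.06, SE 0.142, edgeR adjusted p = 2.94e-05). Zbtb20, a zinc-finger repressor that specifies the hippocampus, did not pass the test: it had 15.3, 20.4 and 33.8 CPM in WT HP libraries, against 16.3, 3.92 and 7.67 CPM in WT PFc libraries, and the regions overlapped through HP 1 and PFc 1.

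**Figure D2:**
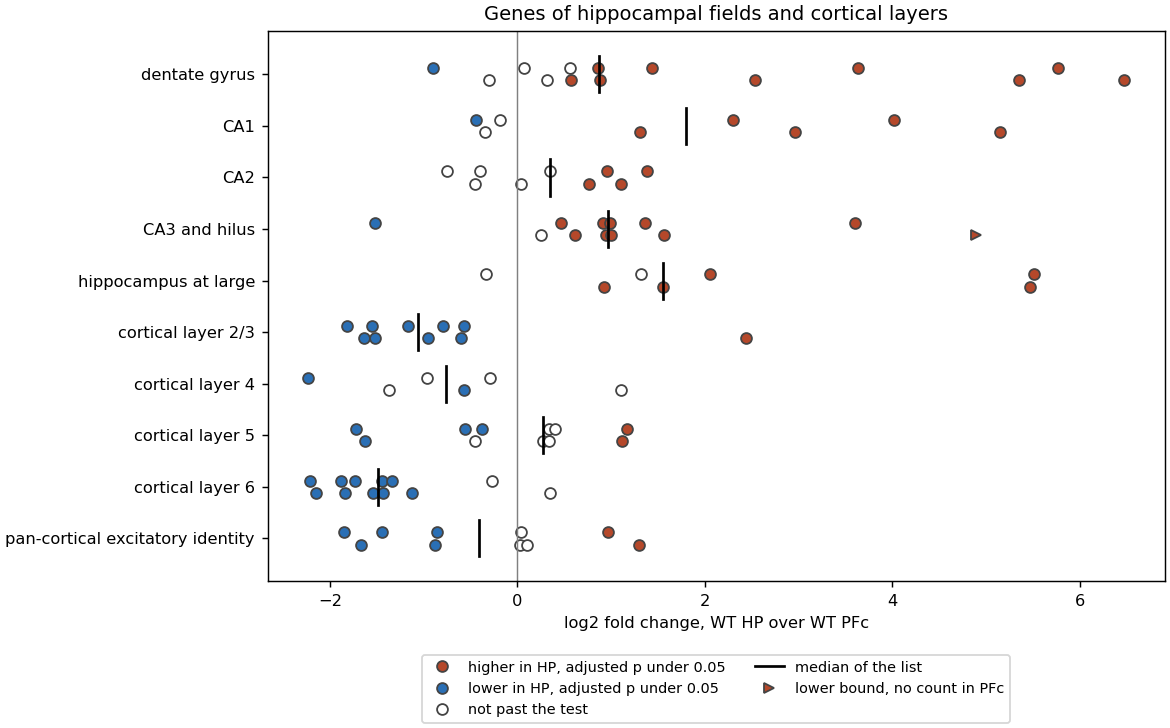
Log2 fold change, WT HP over WT PFc, of each tested gene on lists of hippocampal fields (upper 5 rows) and cortical layers (lower 5 rows); red points rose, blue points fell, open points did not pass the test, bars mark medians and the triangle is the lower bound for Lhfpl1. Most points of the fields lie right of 0 and most points of layers 2/3 and 6 lie left of it, with Mdga1 at 2.44 the exception in layer 2/3.

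Markers of the layers of neocortex included falls in each layer listed. Of 10 layer 2/3 genes 9 fell and 1 rose (median −1.06), and of 12 layer 6 genes 10 fell (median −1.49). Of 11 layer 5 genes 4 fell and 2 rose (median 0.28), and of 6 layer 4 genes 2 fell (median −0.77). In layer 4, 6 of 6 had an unadjusted p under 0.05 in edgeR, with Scnn1a in the other direction, at 1.11. Cux2, a homeodomain gene of upper-layer neurons, had 13.6, 38.1 and 33.8 CPM in WT HP libraries, against 91.7, 115 and 93.8 CPM in WT PFc libraries (log2 fold change −1.81, SE 0.3, edgeR adjusted p = 0.00287). HP 1 was the lowest library, with HP 2 and HP 3 still well under every prefrontal library. The gene that rose in the layer 2/3 list was Mdga1, a membrane protein that blocks neuroligin, with 88.0, 90.9 and 83.1 CPM in WT HP libraries, against 16.6, 17.1 and 14.6 CPM in WT PFc libraries (log2 fold change 2.44, SE 0.101, edgeR adjusted p = 2.08e-06).

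In layer 6, Ccn2, a matrix-associated growth factor of the deepest subplate-derived cells, had 6.16, 11.4 and 10.3 CPM in WT HP libraries, against 36.5, 36.2 and 56.3 CPM in WT PFc libraries (log2 fold change −2.21, SE 0.242, edgeR adjusted p = 0.000344). Sulf1, a heparan sulfatase, fell by 2.15, Syt6, a synaptotagmin, fell by 1.74, and Foxp2, a transcription factor of corticothalamic cells, fell by 1.84. In layer 5, the thyroid hormone-binding gene Crym rose by 1.17 and the repressor Bcl6 by 1.12, while Deptor, an inhibitor of mTOR, fell by 1.72. Fezf2, which specifies subcortical projection neurons, fell by 0.56, with 35.2, 37.2 and 41.8 CPM in WT HP libraries, against 52.9, 54.9 and 60.9 CPM in WT PFc libraries. The regions were close for this gene but did not overlap.

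Genes of excitatory identity shared across layers split. Of 10 such genes 5 fell and 2 rose. Mef2c, an activity-regulated transcription factor, had 120.2, 257 and 251 CPM in WT HP libraries, against 788, 703 and 778 CPM in WT PFc libraries (log2 fold change −1.85, SE 0.244, edgeR adjusted p = 0.000868). HP 1 was the lowest library, and the regions lay far apart. Tbr1, a T-box factor of deep layers, fell by 1.44. Neurod6 and Bhlhe22, both basic helix-loop-helix factors of pyramidal cells, rose by 0.97 and 1.29. Slc17a7, the vesicular glutamate transporter VGLUT1 of both tissues, had 1988, 1842 and 1748 CPM in WT HP libraries, against 1644, 1781 and 1780.5 CPM in WT PFc libraries, and did not pass the test.

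Ionotropic glutamate receptor genes and their auxiliary subunits changed in both directions: 7 of 24 rose and 7 fell. The rises held auxiliary, AMPA, NMDA and kainate subunits, with Grik4, described above, at 1.36. Shisa6, which keeps AMPA receptors at the synapse, had 186, 174 and 205 CPM in WT HP libraries, against 12.04, 11.7 and 18.7 CPM in WT PFc libraries (log2 fold change 3.73, SE 0.18, edgeR adjusted p = 3.95e-06). Gria1, the GluA1 subunit, had 1152, 1062 and 1235 CPM in WT HP libraries, against 430, 421 and 576 CPM in WT PFc libraries (log2 fold change 1.27, SE 0.128, edgeR adjusted p = 0.000217). Both were higher in each hippocampal library than in any prefrontal library. Cnih2 and Cacng8, partners of AMPA receptors in hippocampal pyramidal cells, rose by 1.06 and 1.04, and Grin2a, the GluN2A subunit, by 1.005.

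Among the falls, Grik3, the GluK3 kainate subunit, had 37.8, 62.9 and 56.2 CPM in WT HP libraries, against 164, 124 and 159 CPM in WT PFc libraries (log2 fold change −1.51, SE 0.183, edgeR adjusted p = 0.000564). Cacng3, another AMPA receptor partner, fell by 0.95 and Gria4, the GluA4 subunit, by 0.70. Of 7 metabotropic glutamate receptor genes 3 fell. Besides Grm8, Grm3 fell by 0.99 to 37.9 ± 4.6 CPM in WT HP libraries, against 75.6 ± 6.15 CPM in WT PFc libraries (SD, n = 3 each).

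GABA-A receptor subunits changed by subunit. Gabra5, the alpha-5 subunit of extrasynaptic receptors on pyramidal cells, had 264, 217 and 233 CPM in WT HP libraries, against 68.9, 73.6 and 77.7 CPM in WT PFc libraries (log2 fold change 1.70, SE 0.103, edgeR adjusted p = 1.22e-05). Gabra3, the alpha-3 subunit, had 79.2, 97.9 and 109 CPM in WT HP libraries, against 202, 251 and 235 CPM in WT PFc libraries (log2 fold change −1.27, SE 0.133, edgeR adjusted p = 0.000263). These alpha subunits were separated between the regions in opposite directions. Gabra2 rose by 0.78, while Gabrd, Gabrg3 and Gabrg1 fell by 0.74, 0.70 and 0.67. In all, 3 of 13 tested subunits rose and 4 fell.

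Monoamine receptors of the hippocampus and of the prefrontal cortex differed by receptor. Of 11 serotonin receptor genes 3 rose and 2 fell. Htr1a, the inhibitory autoreceptor and postsynaptic receptor, had 45.2, 42.7 and 53.1 CPM in WT HP libraries, against 16.1, 16.3 and 18.0 CPM in WT PFc libraries (log2 fold change 1.48, SE 0.114, edgeR adjusted p = 5.26e-05). Htr4, a Gs-coupled receptor, had 20.2, 21.1 and 24.3 CPM in WT HP libraries, against 4.54, 4.53 and 6.01 CPM in WT PFc libraries (log2 fold change 2.12, SE 0.151, edgeR adjusted p = 3.61e-05), and Htr5b rose by 2.36. Htr2a, the Gq-coupled receptor of deep-layer pyramidal cells, had 2.66, 3.95 and 6.86 CPM in WT HP libraries, against 13.4, 9.23 and 10.8 CPM in WT PFc libraries (log2 fold change −1.31, SE 0.295, edgeR adjusted p = 0.0135). This last call was lost without HP 2, at −1.23 (edgeR adjusted p = 0.057). Htr1b fell by 0.83, and lost its call without PFc 3, at −0.69.

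The dopamine and adrenergic receptors included 2 rises and 4 falls among 10 tested genes. Drd5, a D1-class dopamine receptor, had 20.2, 16.9 and 20.6 CPM in WT HP libraries, against 2.59, 3.47 and 4.56 CPM in WT PFc libraries (log2 fold change 2.44, SE 0.194, edgeR adjusted p = 6.05e-05). Drd1, the other D1-class receptor, had 4.63, 4.34 and 3.97 CPM in WT HP libraries, against 11.01, 17.6 and 19.1 CPM in WT PFc libraries (log2 fold change −1.88, SE 0.212, edgeR adjusted p = 0.00039). The D1-class receptors thus stood in opposite order in the regions. Drd1 is also a marker of striatal projection neurons, and the sum over 19 markers of those cells was 736, 672 and 658 CPM in WT HP libraries, against 676, 988 and 783 CPM in WT PFc libraries. Their part in the Drd1 value was not tested, and Drd1 stayed between −2.10 and −1.73 when any single library was left out. The alpha-1 adrenergic receptors split as well: Adra1d rose by 1.17, and Adra1a fell by 1.52 beside Adra1b. Adrb1, the beta-1 receptor, fell by 0.74.

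**Figure D3:**
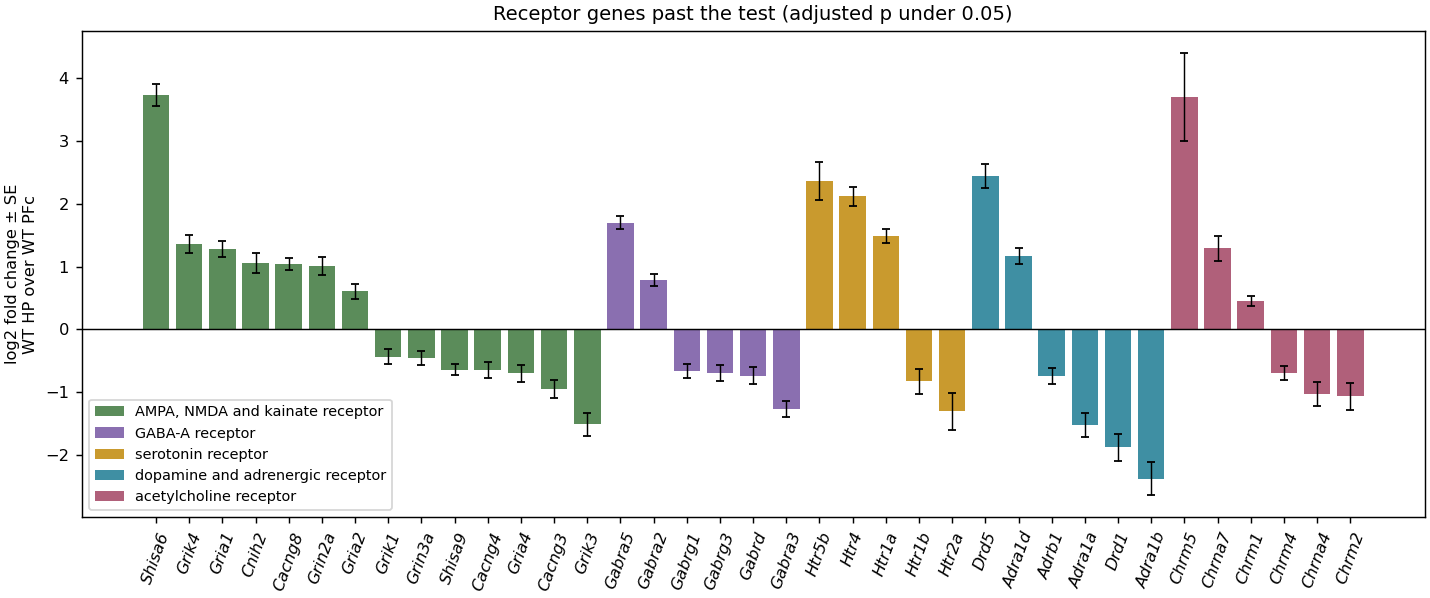
Log2 fold change, WT HP over WT PFc, with its SE, of receptor genes of 5 families that passed the test; each bar is 1 gene, and colours mark the family. Every family has bars above and below 0, with Shisa6 at 3.73 the highest and Adra1b at −2.38 the lowest.

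Maoa itself, the gene changed in the KI mice, had 32.4, 33.4 and 34.8 CPM in WT HP libraries, against 45.7, 43.6 and 44.5 CPM in WT PFc libraries (log2 fold change −0.41, SE 0.0867, edgeR adjusted p = 0.0099). The hippocampal libraries lay below the prefrontal libraries with little spread in either. Maob, which encodes the other monoamine oxidase, fell by 0.45, to 29.0 ± 1.67 CPM in WT HP libraries, against 39.7 ± 1.48 CPM in WT PFc libraries (SD, n = 3 each). Among transporters that clear monoamines at low affinity, Slc29a4, the plasma membrane monoamine transporter, had 37.2, 32.4 and 24.1 CPM in WT HP libraries, against 4.97, 11.3 and 5.15 CPM in WT PFc libraries (log2 fold change 2.13, SE 0.297, edgeR adjusted p = 0.00117). Of 9 genes of monoamine breakdown and transport 1 rose and 3 fell. Slc22a3, another transporter gene on this list, fell. Its call was lost at −1.89 without HP 1, −1.50 without HP 2, −1.47 without PFc 2 and −1.83 without PFc 3.

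Of 12 acetylcholine receptor genes 3 rose and 3 fell. Chrna7, the alpha-7 nicotinic subunit, had 10.7, 11.02 and 15.9 CPM in WT HP libraries, against 5.94, 4.19 and 5.26 CPM in WT PFc libraries (log2 fold change 1.29, SE 0.198, edgeR adjusted p = 0.00197). Chrna4, the alpha-4 subunit, had 15.6, 26.9 and 24.6 CPM in WT HP libraries, against 46.5, 39.7 and 50.9 CPM in WT PFc libraries (log2 fold change −1.03, SE 0.187, edgeR adjusted p = 0.00457). The order of the regions was reversed between these nicotinic subunits. Of the muscarinic receptors, Chrm1 and Chrm5 rose by 0.45 and 3.69, the Chrm5 value resting on 10 counts over the 3 WT PFc libraries, and Chrm2 and Chrm4 fell by 1.06 and 0.70.

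Peptide receptors and peptides were called in both directions. Of 25 receptor genes 6 rose and 9 fell, and of 20 neuropeptide genes 3 rose and 8 fell. Npy2r, the presynaptic Y2 receptor of neuropeptide Y, had 86.1, 64.0 and 81.3 CPM in WT HP libraries, against 6.32, 6.43 and 8.04 CPM in WT PFc libraries (log2 fold change 3.47, SE 0.153, edgeR adjusted p = 2.95e-06). Cckbr, the cholecystokinin B receptor, had 8.31, 27.5 and 19.1 CPM in WT HP libraries, against 85.1, 94.2 and 84.6 CPM in WT PFc libraries (log2 fold change −2.26, SE 0.319, edgeR adjusted p = 0.00121). The hippocampal libraries spread widely for Cckbr, with HP 1 lowest, and each lay far under the prefrontal libraries. The opioid receptors Oprk1 (kappa) and Oprd1 (delta) fell by 1.60 and 1.32. Adcyap1, the gene of the peptide PACAP, had 2.77, 11.2 and 10.3 CPM in WT HP libraries, against 36.8, 34.3 and 25.1 CPM in WT PFc libraries (log2 fold change −1.98, SE 0.381, edgeR adjusted p = 0.00612). Trh, the thyrotropin-releasing hormone gene, had 0.283, 0.501 and 0.214 CPM in WT HP libraries, against 1.57, 2.35 and 4.505 CPM in WT PFc libraries, and fell by 3.06 on the log2 scale.

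Immediate early genes are transcribed within minutes of synaptic activity. Of 24 such genes 15 fell and 3 rose (median −0.85), beside 10.3% and 8.4% of all genes tested. The number that fell was 9 without HP 3 and between 12 and 17 without any other single library. Npas4, an activity-dependent factor of inhibitory synapse formation, had 5.596, 13.4 and 8.25 CPM in WT HP libraries, against 39.8, 52.3 and 35.6 CPM in WT PFc libraries (log2 fold change −2.23, SE 0.271, edgeR adjusted p = 0.000575). Fos had 9.04, 16.9 and 11.8 CPM in WT HP libraries, against 51.8, 77.1 and 32.6 CPM in WT PFc libraries (log2 fold change −2.10, SE 0.312, edgeR adjusted p = 0.00165). Egr2, a zinc-finger factor, had 2.60, 8.63 and 4.39 CPM in WT HP libraries, against 17.6, 30.6 and 13.7 CPM in WT PFc libraries (log2 fold change −1.99, SE 0.405, edgeR adjusted p = 0.00816). HP 2 was the highest hippocampal library for 14 of the 15 that fell, and for 788 of all 1460 genes that fell. PFc 2 was the highest prefrontal library for 12 of the 15, and for 520 of all 1460.

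Fosb, Dusp1 (a phosphatase of MAP kinases) and Ccn1 (a matrix protein) fell by 1.73, 1.44 and 1.34. Egr1, a zinc-finger factor, fell by 1.17, and lost the call without HP 3 (edgeR adjusted p = 0.0744). Arc, a regulator of AMPA receptor uptake, fell by 1.02, and lost the call without HP 1 (edgeR adjusted p = 0.055) and without HP 3 (0.0761); its log2 fold change was −0.67 without PFc 2. The rises were Jun, Nr4a2 and Nr4a3. Jun, the partner of Fos in the AP-1 factor, had 138, 123 and 127 CPM in WT HP libraries, against 55.0, 62.4 and 72.2 CPM in WT PFc libraries (log2 fold change 1.03, SE 0.113, edgeR adjusted p = 0.000347). Nr4a2, an orphan nuclear receptor, had 42.4, 57.4 and 48.5 CPM in WT HP libraries, against 28.3, 22.9 and 13.7 CPM in WT PFc libraries (log2 fold change 1.19), while its relative Nr4a1 fell by 0.86. The Nr4a1 call was lost without HP 3 (edgeR adjusted p = 0.055), and that of Nr4a3, at 0.65, without HP 1 (0.063) and without HP 2 (0.067). Bdnf, which neuronal activity also induces, did not differ past the test, at 43.2, 52.8 and 47.3 CPM in WT HP libraries, against 52.0, 48.8 and 34.6 CPM in WT PFc libraries.

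**Figure D4:**
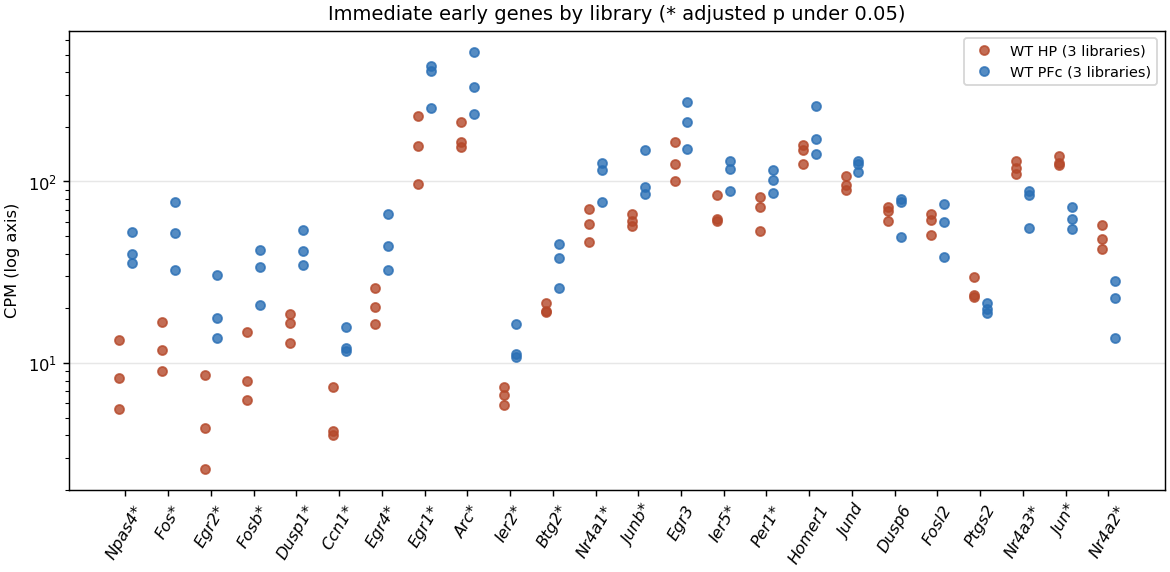
Level of 24 immediate early genes in each WT library, in CPM on a log axis, ordered by log2 fold change; red points are HP, blue points PFc, and stars mark genes past the test. Red points lie under the blue ones for Npas4 at −2.23 and the other starred genes of the left part, and above them at the right end for Nr4a3, Jun and Nr4a2.

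The promoters of the 3 immediate early genes with the largest falls are shown because the cAMP response element is a known element of such promoters. The 250 bases before each start are taken from RefSeq (GRCm38.p6) for Fos (chr12:85473640-85473889, plus strand), Npas4 (chr19:4989972-4990221, minus strand) and Egr2 (chr10:67537619-67537868, plus strand). Capitals mark TGACG, the core of the cAMP response element, on either strand (CGTCA on the opposite strand), and the CArG box, the binding sequence of serum response factor. Where a gene had several starts, the start with the most of these matches is shown, a choice that favours such matches.
Fos: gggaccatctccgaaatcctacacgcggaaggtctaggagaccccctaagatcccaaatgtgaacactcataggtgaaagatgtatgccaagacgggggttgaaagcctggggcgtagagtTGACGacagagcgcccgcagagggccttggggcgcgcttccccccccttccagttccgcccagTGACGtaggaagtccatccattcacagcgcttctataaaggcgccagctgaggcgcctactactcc
Npas4: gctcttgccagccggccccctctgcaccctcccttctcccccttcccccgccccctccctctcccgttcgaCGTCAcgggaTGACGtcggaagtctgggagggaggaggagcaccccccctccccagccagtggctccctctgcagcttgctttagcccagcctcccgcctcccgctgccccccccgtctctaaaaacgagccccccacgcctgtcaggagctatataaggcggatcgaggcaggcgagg
Egr2: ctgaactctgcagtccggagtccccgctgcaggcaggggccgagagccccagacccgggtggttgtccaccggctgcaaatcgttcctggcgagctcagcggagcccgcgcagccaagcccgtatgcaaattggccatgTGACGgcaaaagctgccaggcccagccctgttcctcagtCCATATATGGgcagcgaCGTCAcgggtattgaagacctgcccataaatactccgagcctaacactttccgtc
Fos holds TGACG at −129 and −66, Npas4 holds it at −179 and −169, and Egr2 holds it at −111 and −55 with a CArG box at −72, counted from the start to the first base of each match. In windows of 250 bases before to 50 after the start, TGACG was present for 11 of the 12 immediate early genes that fell and have an entry (91.7%), against 34% of 11304 tested genes with an entry. The CArG box was present for 1 of the 12 (8.33%), against 1.59% of tested genes. TGACG was present for 27% of all genes that rose and 28.3% of all genes that fell, of those with an entry. A gene was counted if any of its starts held the motif. Counted by start, TGACG was present for 14 of 17 (82.4%) of these immediate early starts, against 29.2% of 14530. These matches describe the letters in the windows, and the motifs were chosen after the promoters had been looked at.

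Receptors for adrenal steroids and genes of retinoic acid supply also divided the regions. Nr3c2, the mineralocorticoid receptor, had 228, 215 and 201 CPM in WT HP libraries, against 45.2, 38.1 and 47.1 CPM in WT PFc libraries (log2 fold change 2.30, SE 0.109, edgeR adjusted p = 3.65e-06). Nr3c1, the glucocorticoid receptor, fell by 0.35, a call that was lost on leaving out any single library but PFc 2 (edgeR adjusted p between 0.0795 and 0.131). Thrb, a thyroid hormone receptor, fell by 1.11 and Nr2f2, the orphan receptor COUP-TFII, rose by 2.12. Of 11 retinoic acid genes 3 rose and 3 fell. Aldh1a1, which makes retinoic acid, rose by 1.65 and its relatives Aldh1a2 and Aldh1a3 fell by 1.03 and 3.42. Aldh1a2 is also on the list of meningeal fibroblast genes given below. Cyp26b1, the enzyme that degrades retinoic acid, had 8.14, 10.97 and 10.1 CPM in WT HP libraries, against 1.57, 1.73 and 1.61 CPM in WT PFc libraries (log2 fold change 2.57, SE 0.183, edgeR adjusted p = 3.61e-05).

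Genes of axon guidance and adhesion were called in both directions: 22 of 46 rose and 14 fell. Sema3e, a secreted semaphorin, had 114, 85.0 and 126 CPM in WT HP libraries, against 31.0, 26.1 and 27.4 CPM in WT PFc libraries (log2 fold change 1.94, SE 0.149, edgeR adjusted p = 5.26e-05). Slit1, a repellent that signals through Robo receptors, had 286, 276 and 296 CPM in WT HP libraries, against 83.7, 67.6 and 95.6 CPM in WT PFc libraries (log2 fold change 1.80, SE 0.126, edgeR adjusted p = 3.41e-05). Nrp1 and Nrp2, the semaphorin co-receptors, rose by 1.54 and 1.01, and the ephrin receptors Epha6, Epha3, Epha7 and Epha4 by 1.58, 1.49, 1.16 and 0.99. The ligands Sema3a and Sema3f fell by 1.51 and 1.49 and the cadherins Cdh13 and Cdh7 by 1.52 and 1.54. Robo2, at 0.07, and Robo1, at 0.12, did not pass the test.

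Ion channel genes were called in both directions, with 10 of 41 potassium channel genes higher and 12 lower, and 5 of 23 voltage-gated calcium and sodium channel genes higher and 4 lower. Kcnip2, a subunit of A-type potassium channels, had 255, 232 and 215 CPM in WT HP libraries, against 79.4, 103 and 92.7 CPM in WT PFc libraries (log2 fold change 1.35, SE 0.116, edgeR adjusted p = 8.87e-05). Kcnf1, a silent potassium channel subunit, had 110, 129 and 127 CPM in WT HP libraries, against 305, 304 and 266 CPM in WT PFc libraries (log2 fold change −1.26, SE 0.101, edgeR adjusted p = 6.49e-05). Scn3b, a sodium channel beta subunit, rose by 1.06, and the T-type calcium channel genes Cacna1h and Cacna1g stood in opposite order, at 0.78 and −0.72.

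Relatives within a gene family were set side by side in 30 pairs, and in 8 of them the members passed the test in opposite directions. Among these 8 the widest gap was between C1ql2, at 5.35, and C1ql3, at −0.70, which had 180, 187 and 196 CPM in WT HP libraries, against 250.02, 329.7 and 337 CPM in WT PFc libraries. Grik4 and Grik3 differed by 2.87 on the log2 scale (1.36 and −1.51), Hpca and Hpcal4 by 2.75 (2.06 and −0.70), and Nr3c2 and Nr3c1 by 2.65. The others were Nptx1 and Nptx2, neuronal pentraxins that cluster AMPA receptors (0.78 and −0.96), Lmo3 and Lmo4 (0.73 and −0.88), Kcnip2 and Kcnip1 (1.35 and −0.42), and Rprml and Rprm (0.47 and −1.13). The Nptx2 call was lost without HP 3 (edgeR adjusted p = 0.0547), the Nr3c1 call as given above, and the Kcnip1 call on leaving out any library but PFc 1 (edgeR adjusted p between 0.0531 and 0.14). Reads shared by close relatives could have been divided between them in the authors' counting, since the counting tool is not given in the sources used here.

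Of 24 interneuron genes 4 rose and 7 fell, beside 8.4% and 10.3% of all genes tested. Gad1, the main enzyme of GABA synthesis, had 286, 326 and 341 CPM in WT HP libraries, against 348, 273 and 318 CPM in WT PFc libraries, and the regions overlapped. Vip, the peptide of a class of disinhibitory interneurons, had 18.4, 28.3 and 28.0 CPM in WT HP libraries, against 54.7, 77.8 and 65.1 CPM in WT PFc libraries (log2 fold change −1.40, SE 0.182, edgeR adjusted p = 0.000795). Tac2 and Tac1, tachykinin genes, fell by 1.36 and 1.31, and Kit, a receptor tyrosine kinase, rose by 1.44. Pvalb and Sst, at 0.33 and −0.31, did not pass the test.

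Markers of oligodendrocytes, microglia and vessels had medians a little under 0, with few calls that held on leaving out libraries. Of 15 oligodendrocyte genes 6 fell (median −0.36), a count that was 8 without HP 1, 2 without HP 2 or HP 3, 3 without PFc 1 or PFc 3, and 10 without PFc 2. Mal, a proteolipid of myelin, had 277, 253 and 277 CPM in WT HP libraries, against 399, 332 and 436 CPM in WT PFc libraries (log2 fold change −0.53, SE 0.111, edgeR adjusted p = 0.00917). None of 14 microglia genes passed edgeR's test, 4 had an unadjusted p under 0.05 and DESeq2 called 2, with a lower fitted level in hippocampus for 14 of 14 (median −0.36). Of 14 genes of endothelium and pericytes 4 fell, and without single libraries the count was 0 for HP 1 and HP 3, 7 for HP 2, 1 for PFc 1, 3 for PFc 2 and 2 for PFc 3. Of 12 genes of meningeal fibroblasts 7 fell and 1 rose, and their sum was 92.1, 86.6 and 98.4 CPM in WT HP libraries, against 114, 192 and 104 CPM in WT PFc libraries. Of 17 astrocyte genes 2 rose and 3 fell (median −0.13), beside 8.4% and 10.3% of all genes tested. The number that fell was 1 without HP 1, HP 2, PFc 2 or PFc 3. Agt, the angiotensinogen gene, had 26.1, 20.7 and 21.4 CPM in WT HP libraries, against 4.37, 4.92 and 4.18 CPM in WT PFc libraries (log2 fold change 2.34, SE 0.143, edgeR adjusted p = 1.32e-05). Gfap, the intermediate filament of reactive and fibrous astrocytes, rose by 1.13.

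Of 17 tested striatal genes 6 fell and 1 rose, Drd1 among those that fell. None of 11 choroid plexus genes passed edgeR's test, with 0 at an unadjusted p under 0.05 and 0 by DESeq2. None of 8 ependymal genes passed it either, with 2 at an unadjusted p under 0.05 and 0 by DESeq2. Ttr, the transthyretin gene of the choroid plexus, had 167, 47.9 and 717 CPM in WT HP libraries, against 29.7, 1274 and 61.1 CPM in WT PFc libraries, with a log2 fold change of −0.55 that did not pass the test and was 2.78 without PFc 2. Of 9 tested olfactory bulb genes 5 fell and 1 rose (median −0.53). The 12 markers on this list summed to 99.8, 99.0004 and 105.5 CPM in WT HP libraries. In WT PFc libraries they summed to 211.4, 211.8 and 214.8 CPM. The lowest log2 fold change on the list was −3.06, the value given above for Trh. The part of these tissues in the other values was not tested.

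**Figure D5:**
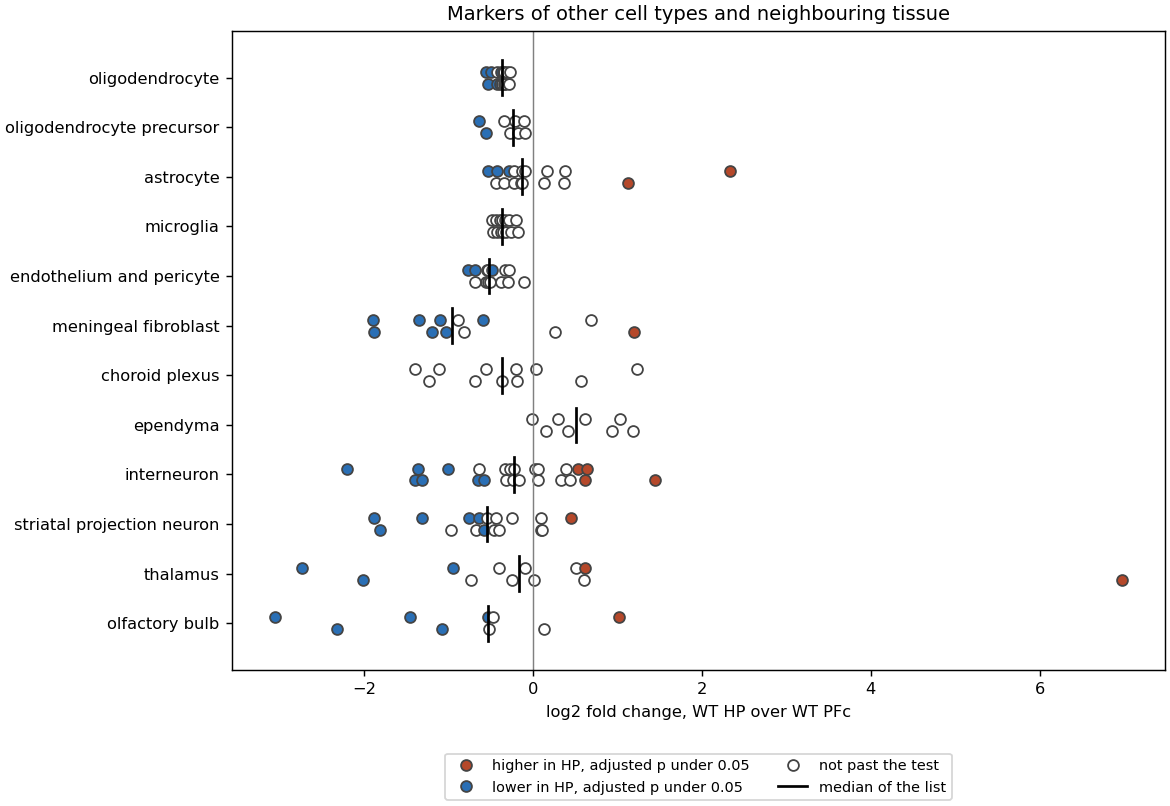
Log2 fold change, WT HP over WT PFc, of each tested marker of other cell types and neighbouring tissue; red points rose, blue points fell, open points did not pass the test and bars mark medians. Oligodendrocyte, microglia and vessel markers cluster just left of 0, while single genes such as Agt at 2.34 and Lhx9, which is on the thalamus list, at 6.98 lie far to the right.

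The same regions of KI mice gave a comparison that shares no library with the WT one. The 19 striatal markers summed to 10780 CPM in the library labelled KI HP 2 and 3106 CPM in the library labelled KI PFc 1, against 687 to 1037 CPM in the other HP and PFc libraries of both genotypes, in CPM scaled over all 36 libraries. With all 6 KI libraries 31 of 14183 genes (0.219%) passed edgeR's test, and without those 2 libraries 3972 of 14233 (27.9%) did, an alternative chosen after seeing the data. Of the 2600 WT calls that were also tested with all 6 KI libraries, 2342 (90.1%) had the same direction there, against 69.6% of all genes tested in both. Without the 2 libraries the direction was shared by 2539 of 2632 WT calls (96.5%), against 78.9% of all genes tested in both, and 1911 of those were also called in KI; for WT calls of at least 2-fold it was 769 of 778 (98.8%). The direction of the 24 leading genes was the same for 24 of 24 without the 2 libraries, and for the 20 that were tested with all 6.

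Without the 2 libraries, 13 WT calls were called in the opposite direction in KI. Of the 6 oligodendrocyte genes that fell in WT, 0 had the same direction in KI. Mal had a log2 fold change of 1.15 in KI without the 2 libraries and of −0.53 in WT. Nr2f2, which rose by 2.12 in WT, stood at −0.13 in KI without the 2 libraries, and Dcn, a proteoglycan gene of the meninges and other connective tissue, at −0.74, against 1.20 in WT. No difference between the genotypes passed the test of the interaction in edgeR (0 of 14530 genes, smallest adjusted p = 0.963, 589 at an unadjusted p under 0.05), nor in DESeq2 (0 genes, smallest adjusted p = 0.0791, 676 at an unadjusted p under 0.05). Without the 2 libraries edgeR's test of the interaction called 0 of 14596 genes, with a smallest adjusted p of 0.0534 and 1387 genes at an unadjusted p under 0.05. Maoa had a log2 fold change of −0.21 with all 6 KI libraries and −0.39 without the 2, beside −0.41 in WT.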

How the data were processed

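RNA of dissected brain regions was made into libraries with a SMARTER mRNA-seq kit, per the labels' protocols. The authors deposited 1 table of estimated counts per gene, with TPM beside them, on GRCm38.p6 per the submitters' processing notes; for the aligner, counter and strand setting the sources used here give no name. Not used were 246 other per-sample columns, which hold normalized counts, FPKM and the TPM of other libraries; no TPM value is printed. About 9.26% to 9.93% of the values in the 6 WT libraries were not whole, and the estimated counts were rounded. Of 19025 gene IDs 18969 matched RefSeq.

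Genes were filtered with filterByExpr, scaled by TMM and tested by edgeR 4.0.16 (limma 3.58.1, R 4.3.3), with the quasi-likelihood test and Benjamini-Hochberg adjustment over 14221 genes at 0.05. The SE is the absolute log2 fold change divided by the square root of F. CPM were computed on TMM-scaled library sizes. Alternatives were DESeq2 1.42.0, RLE size factors, no filter, the replicate block and leaving out each library. Libraries held 17700411 to 18863503 estimated counts. The fits were tested on simulated data with 200 changed genes. Tables and figures were made with Python 3.11.15, pandas 2.3.3 and matplotlib 3.10.9.

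Genes are named by rule: Maoa, the 12 genes highest and the 12 genes lowest by log2 fold change among calls whose regions do not overlap and whose mean log2 CPM is at least 1, and up to 6 members of each of 43 lists. Genes named beside these were chosen after their values were seen, as were the paralog examples. The comparison and the lists were chosen with earlier results of these data known. Of 596 list genes 552 passed the filter. A list is described by its counts and median, not tested. Some genes, such as Drd1 and Tbr1, stand on several lists and count in each. Some genes that the rule selects are not reported here.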

Additional observations from a re-analysis of the deposited data

How the results depend on the processing

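The numbers of genes higher and lower in WT hippocampus, 1195 and 1460, were 1260 and 1535 by DESeq2, 1191 and 1455 with RLE size factors, 1189 and 1439 with no filter on low counts, and 823 and 1032 with the replicate number as a block. On leaving out single libraries the number higher ran from 852 to 1039 and the number lower from 964 to 1276, the lowest being without HP 1. The labels do not say whether same-numbered HP and PFc libraries came from the same mouse. The deviations of same-numbered libraries correlated at −0.28, −0.08 and 0.16, which with 3 libraries per region cannot decide it. Of the 1855 calls made with the block, 1823 were shared with the fit without it. Of 266 genes chosen by the rule or named in the text, 192 kept their direction and their side of the threshold under each alternative run, 43 lost a call under at least 1 and 14 changed sign under at least 1. None of those 14 passed the test with all 6 libraries, and on leaving out single libraries their log2 fold changes ran from −0.14 to 0.43 for Csf2rb2, −0.063 to 0.095 for Gad1, −0.027 to 0.52 for Htr2c, −0.065 to 0.17 for Chrm3, −0.13 to 0.12 for Thra, −0.041 to 0.27 for Robo2, −0.51 to 0.0068 for Hopx, −0.18 to 0.080 for Qdpr, −0.16 to 0.0099 for Olig1, −0.24 to 0.047 for Rgs5, −2.09 to 2.78 for Ttr, −0.18 to 0.11 for Tm4sf1, −0.56 to 0.13 for Slc17a6 and −0.077 to 0.18 for Bdnf. With the replicate block Ttr stood at 1.39. In KI mice the numbers higher and lower, 8 and 23, were 323 and 414 by DESeq2, 14 and 37 with no filter, 2 and 5 with the replicate block, 0 to 341 and 0 to 338 on leaving out single libraries, and 1696 and 2276 without KI HP 2 and KI PFc 1. The causes of these differences were not tested. On counts simulated at this depth edgeR recovered 79% of 2-fold changes with 12 false calls and 98% of 4-fold changes with 16 false calls. Some smaller changes may thus have been missed with 3 libraries per region, although others passed the test. The simulation changed 200 of 14221 genes and drew each gene independently, whereas 2655 genes were called in the data. Its rates of recovery and of false calls may therefore not carry over to this comparison.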
